A study of Homo sapiens with 4 samples.

Results

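Expression of 10 genes encoding AP-1 subunits and immediate early transcription factors was examined in SKBR3 cells with and without overexpressed VIRMA. The set comprised the FOS family (FOS, FOSB, FOSL1 and FOSL2), the JUN family (JUN, JUNB and JUND), EGR1, IER2 and NR4A1. Genes were chosen by symbol, and each of the 10 was found once among the 56271 rows of the count table.

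AP-1 is a dimeric transcription factor assembled from basic leucine zipper proteins. JUN proteins pair with one another or with FOS proteins, whereas FOS proteins bind DNA only with a partner. Many genes of the set are immediate early genes, whose transcription starts within minutes of a growth factor or stress signal from factors already present in the cell, often through MAP kinases and serum response factor, and whose short-lived mRNAs carry AU-rich elements. EGR1 is a zinc finger factor, NR4A1 an orphan nuclear receptor and IER2 a nuclear protein induced in the same wave.

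SKBR3 is an established HER2-positive breast cancer cell line. Control cells carried a lentiviral FUW vector in which the ubiquitin C promoter drove eGFP, and VIRMA-overexpressing cells carried HA-tagged full-length VIRMA joined to eGFP through a p2A peptide. VIRMA is a scaffold subunit of the complex that writes N6-methyladenosine on RNA, and the comparison asks which transcripts differ when it is raised. Poly-A-enriched RNA was sequenced from biological duplicates of each group, giving 4 libraries. Cells were sorted for eGFP after transduction, so each group is a sorted population rather than a clone. Any difference between the populations other than VIRMA cannot be told apart from its overexpression, and with no separate transductions described the p-values measure only the spread between duplicates. The culture text of all 4 libraries mentions a hypoxia chamber and lysis for protein, whereas the study treats its sequencing as ordinary culture, so the oxygen level is uncertain.

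Total counts ranged from 81446932 to 86375474 per library. VIRMA, listed under its older symbol KIAA1429, gave 710 and 682 counts in eGFP control cells against 3437 and 3460 after overexpression. It was 4.89-fold higher (log2 fold change 2.29, standard error 0.0685, adjusted p in edgeR = 9.74e-26). VIRMA was above 1 RPKM, reads scaled to exonic length and library size, only in the overexpressing libraries, so it had to differ to be tested. Of 7 epithelial markers of SKBR3 cells, all were measured, with a summed level of 27211 to 29072 CPM, counts scaled to library size, in the 4 libraries. Single markers shifted within that sum: KRT7, GRB7 and KRT18 rose (log2 fold changes 0.49, 0.43 and 0.08), KRT8, EPCAM and KRT19 fell (-0.51, -0.39 and -0.12), and ERBB2, the gene of HER2, was at -0.001 (edgeR adjusted p = 0.963). Mitochondrial genes took 11.35% and 11.6% of control counts against 12.83% and 12.81% in VIRMA-overexpressing cells.

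Promoters of 9 genes were found among RefSeq sequences of GRCh38.p14, each running 250 bases upstream to 50 downstream of a gene start, with 2 starts for NR4A1. FOSL1 had no entry. The FOSL2 promoter (chromosome 2, 28392608 to 28392907) lies inside the gene as counted, which starts at 28392448. The gene start named for its window below is therefore that of RefSeq. The serum response element that classically drives immediate early genes contains a CArG box, the site of serum response factor. On either strand, a CArG box was found in 1 of the 9 genes, EGR1, against 1.29% of all 35116 promoters. The AP-1 site TGACTCA was in FOSL2 alone (4.95% of all promoters), and the related site TGACGTCA, shared by CREB and ATF proteins, in JUND alone (1.85%). Neither GCGTGGGCG nor GCGGGGGCG, the EGR1 sites searched (5.77% together), nor TGATGNAA, searched as a composite site of C/EBP and ATF proteins (3.62%), was present in any of the 9. The 4 windows that held a match are printed 5′ to 3′ on the strand of the motif, in lower case with the motif in capitals, because they are the only matches to these letters in the set. A match describes the letters in the window and does not show that a factor binds there. Sequence further than 250 bases upstream was not searched, so a gene without a match here may hold a site there.
EGR1 upstream window, chr5:138465364-138465393, plus strand: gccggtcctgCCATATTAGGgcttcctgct
EGR1 second window, chr5:138465386-138465415, plus strand: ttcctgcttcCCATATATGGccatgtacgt
JUND upstream window, chr19:18281804-18281833, minus strand: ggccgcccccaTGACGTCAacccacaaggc
FOSL2 window at the gene start, chr2:28392851-28392879, plus strand: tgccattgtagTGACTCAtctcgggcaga

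VIRMA-overexpressing cells held less mRNA of most of these factors than control cells. FOSB was 7.91-fold lower and NR4A1 fell to 33.3% of its control level, while JUN, EGR1 and FOS fell to between 55.7% and 68.6% of their control levels. JUNB fell slightly, FOSL2 rose, and JUND and IER2 did not pass the test. FOSL1 was too low to be tested. Thus 6 of the 9 tested genes fell and 1 rose at an adjusted p below 0.05, beside 35.9% of all 12205 tested genes that were lower and 35.1% that were higher (71% in either direction). Past the further threshold of a log2 fold change below -1 were 2 of the 9 genes, FOSB and NR4A1, against 2.93% of tested genes, and 0 of the 9 were above 1, against 4.52%. In 7 of the 9 both VIRMA-overexpressing libraries lay below both controls, and in FOSL2 both lay above, where 41.6% and 42.7% of all tested genes did so. Log2 fold changes of the 9 ran from -2.98 to 0.30 with a median of -0.54, where the median over all tested genes was 0.01. Summed over the 10 genes, the level was 2044.4 and 2043.3 CPM in control libraries against 1417.5 and 1443.4 CPM with VIRMA overexpressed.

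**Figure D1:**
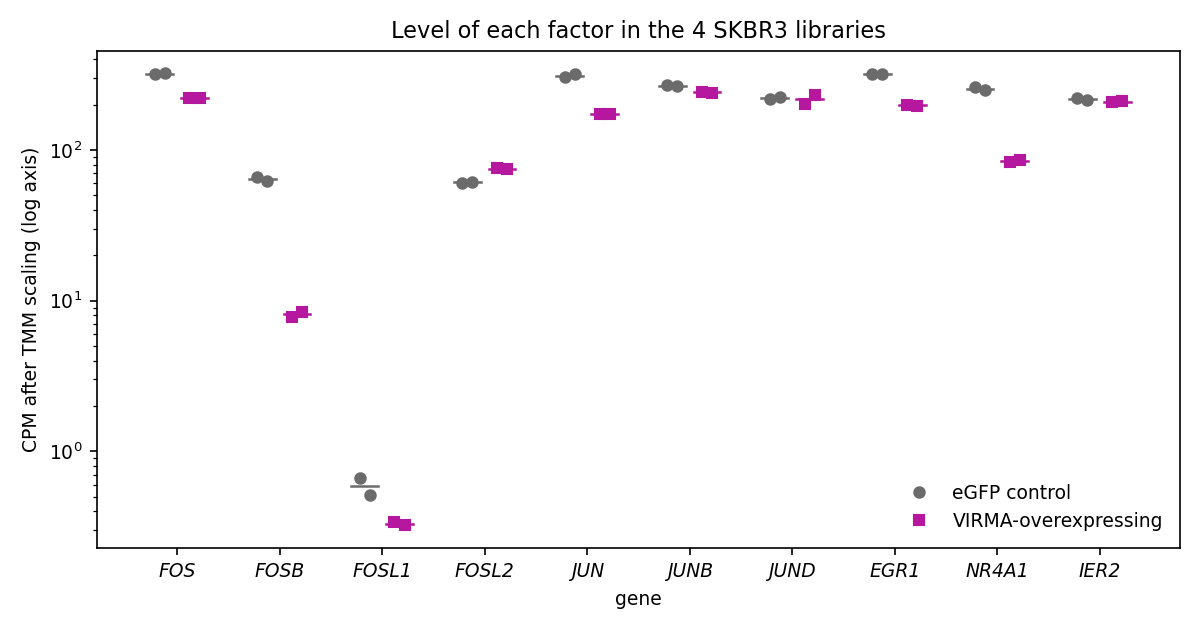
Level of each of the 10 genes in each library, in CPM on a log axis, with 1 point per library and a bar at each group mean. Control and VIRMA-overexpressing points are furthest apart for FOSB (64.1 against 8.10 CPM) and NR4A1 (256 against 85.1 CPM), while those of JUND overlap.

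Several markers of other cell types moved with the groups, in both directions, and their part in these differences was not tested. Of 12 erythroid markers, the summed level was 28.2 and 20.4 CPM among controls against 0.584 and 0.395 CPM. Most of that sum was HBB, the beta chain of haemoglobin, at 25.7 and 18.4 CPM in the controls (2137 and 1543 counts against 0 and 0). GYPB was at 0 throughout. Of 17 leukocyte markers, 4 were tested and all 4 fell (CORO1A, LCP1, S100A8 and S100A9), beside 35.9% of all tested genes. All 17 summed to 916 and 935 CPM in the controls against 631 and 629 CPM, and most of it was S100A9 (556 and 573 against 437 and 429 CPM). PTPRC, the defining leukocyte surface marker, gave only 23 and 13 counts (0.277 and 0.155 CPM) among controls against 3 and 0. The B cell marker MS4A1 was at 0 in all 4 libraries. Of the 13 leukocyte markers too low to test, 6 including PTPRC were lower in both VIRMA-overexpressing libraries than in both controls. Among all tested genes 41.6% were lower in this way and 42.7% higher. Of the same 13 markers, 3 were higher in both VIRMA-overexpressing libraries. Those 3 were CD37 (40 and 30 against 78 and 41 counts), CD3E (73 and 60 against 87 and 90) and NKG7 (6 and 9 against 26 and 15). Fibroblast markers summed to 13.8 and 13.4 CPM against 8.43 and 9.01 CPM, whereas endothelial markers summed to 7.60 and 6.44 CPM in the controls against 8.02 and 8.96 CPM. Nearly all of the fibroblast sum was COL1A1 (1119 and 1092 against 713 and 741 counts), and no other fibroblast marker exceeded 18 counts in a library. Most of the endothelial sum was CDH5 (461 and 415 against 598 and 632 counts). Of the other endothelial markers, VWF (159 and 113 against 79 and 105 counts) and PECAM1 were lower with VIRMA overexpressed, and KDR was higher. Neither sum therefore stands for its cell type as a whole. In bulk RNA, fewer cells of a kind and less RNA per cell cannot be told apart.

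FOSB differed most. This gene (chromosome 19, 45467995 to 45475179, plus strand, GRCh38) encodes a FOS family subunit with a transactivation domain, and its 3 exon blocks span 5553 exonic bases. It had 66.3 and 61.9 CPM in the controls and 7.84 and 8.37 CPM in VIRMA-overexpressing cells. Both control libraries lay far above both VIRMA-overexpressing libraries, and the gap exceeded the spread within either group (64.1 ± 3.13 against 8.10 ± 0.380 CPM, SD, n = 2). FOSB fell by 2.98 on the log2 scale (standard error 0.0620, adjusted p in edgeR = 1.35e-30), the 5th lowest among the 12205 tested genes. Counts behind these values were 5514 and 5178 in the controls against 671 and 700. FOSB also moved down among the tested genes when they were ranked by RPKM, reads scaled to exonic length and library size, from percentiles 72.4 and 70.8 in the controls to 11.9 and 14.1 in VIRMA-overexpressing cells.

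FOS (chromosome 14, 75278774 to 75282230, plus strand) is the founding member of its family and was the most abundant of the 4 per length. Its level was 321 and 323 CPM in control libraries, and 222 and 221 CPM in VIRMA-overexpressing libraries. The duplicates nearly coincided and the groups did not overlap. FOS fell by 0.54 on the log2 scale (standard error 0.0303, adjusted p in edgeR = 7.84e-18), to 68.6% of the control level. It remained among the more abundant tested transcripts, at percentile 95.4 or above in every library.

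FOSL2 and FOSL1 encode FOS family proteins that lack the transactivation domain of FOS and FOSB. FOSL2 (chromosome 2, 28392448 to 28417312, plus strand, 7 exon blocks) had 60.2 and 61.8 CPM in the controls against 75.8 and 74.4 CPM. Both VIRMA-overexpressing libraries were above both controls, the opposite order to FOS and FOSB. The rise was 1.23-fold (log2 fold change 0.30, standard error 0.0404, adjusted p in edgeR = 3.93e-08), and FOSL2 was the only gene of the 10 that rose. FOSL1 (chromosome 11, 65892049 to 65900573, minus strand) yielded 55 and 43 counts from control cells and 29 and 27 from VIRMA-overexpressing cells, or 0.661, 0.514, 0.339 and 0.323 CPM. Although the groups did not overlap, FOSL1 was below 1 RPKM in every library and did not enter the test. When no filter was applied it had a log2 fold change of -0.86 (standard error 0.448, adjusted p in edgeR = 0.159).

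JUN encodes c-Jun, the most strongly activating subunit of its family. The gene (chromosome 1, 58780788 to 58784327, minus strand) is a single exon of 3540 bases. Its level was 305 and 318 CPM in the controls against 172 and 175 CPM in VIRMA-overexpressing cells. Both control values exceeded both others by far more than the spread of the duplicates (311 ± 9.43 against 174 ± 1.73 CPM, SD, n = 2). JUN fell by 0.84 on the log2 scale (standard error 0.0319, adjusted p in edgeR = 9.99e-23), a 1.79-fold difference.

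JUNB and JUND, which can restrain c-Jun in some settings, differed far less. JUNB (chromosome 19, 12791496 to 12793315, plus strand, 1 exon) had 269.6 and 266 CPM in the controls and 245 and 239 CPM in VIRMA-overexpressing cells. The groups did not overlap, and JUNB fell by 0.15 on the log2 scale (standard error 0.0308, adjusted p in edgeR = 6.48e-05). Scaling by library totals in place of TMM factors ended this call (log2 fold change -0.06, edgeR adjusted p = 0.0618). JUND (chromosome 19, 18279760 to 18281622, minus strand, 1 exon) had 219 and 224 CPM against 203 and 232 CPM, so the VIRMA-overexpressing duplicates lay on either side of the controls. Its log2 fold change was -0.03 (95% interval -0.105 to 0.047, edgeR adjusted p = 0.510). The estimate turned to 0.06 without VIRMA-overexpressing replicate 1 (edgeR adjusted p = 0.176) and became a call of -0.13 without VIRMA-overexpressing replicate 2 (edgeR adjusted p = 0.00438).

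NR4A1 (chromosome 12, 52022832 to 52059507, plus strand, 11 exon blocks), a nuclear receptor that is itself induced as an immediate early gene, had the second largest difference. Libraries from control cells gave 261 and 251 CPM and those from VIRMA-overexpressing cells 83.9 and 86.4 CPM. No overlap was seen, and duplicates of each group were close (256 ± 7.09 against 85.1 ± 1.75 CPM, SD, n = 2). NR4A1 fell by 1.59 on the log2 scale (standard error 0.0343, adjusted p in edgeR = 4.4e-30), the 74th lowest of all tested genes.

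EGR1 (chromosome 5, 138465490 to 138469315, plus strand, 2 exon blocks), whose promoter held both CArG boxes printed above, had 319 and 320.4 CPM in the controls against 199 and 197 CPM. The difference was many times the spread (319.7 ± 1.02 against 198 ± 1.97 CPM, SD, n = 2). EGR1 fell by 0.69 on the log2 scale (standard error 0.0306, adjusted p in edgeR = 1.08e-20), between the values of FOS and JUN. IER2 (chromosome 19, 13150415 to 13154908, plus strand, 2 exon blocks) had 222 and 216 CPM in the controls and 208 and 212 CPM in VIRMA-overexpressing cells. The groups did not overlap, as for 84.3% of tested genes, but lay closer together than the control duplicates did. Its log2 fold change of -0.06 (95% interval -0.125 to -0.001, taken from a normal distribution and so somewhat narrow) missed the threshold (edgeR adjusted p = 0.0729). It passed with no filter on low genes (edgeR adjusted p = 0.0147), with the filter of edgeR's filterByExpr (0.00704) and with the replicate number as a block (0.0328).

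**Figure D2:**
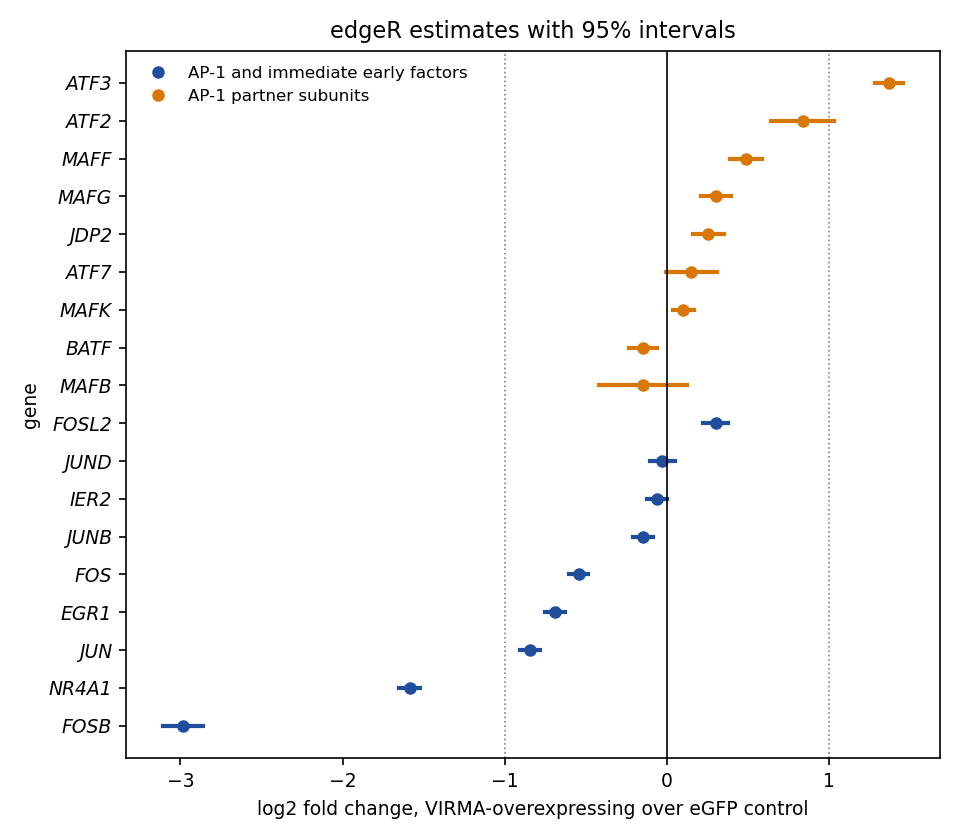
Log2 fold change of the tested genes of the set and of tested AP-1 partner subunits, VIRMA-overexpressing over control, with 95% intervals from the standard error; the dotted lines mark -1 and 1. FOSB (-2.98) and NR4A1 (-1.59) lie below -1, ATF3 (1.37) above 1, and the estimates of the other genes lie between.

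Ordered by level per length, the controls ran JUNB (148 and 146 RPKM), JUND (118 and 120.3), EGR1 (102 and 102), FOS (99.3 and 99.8), JUN (86.1 and 89.9), IER2 (72.3 and 70.5), NR4A1 (35.8 and 34.4), FOSB (11.9 and 11.1), FOSL2 (8.42 and 8.63) and FOSL1 (0.350 and 0.272). No neighbours in that order overlapped, but EGR1 and FOS were within about 3 RPKM of each other. In VIRMA-overexpressing cells the order was JUNB (134 and 131 RPKM), JUND (109 and 124), IER2 (67.8 and 68.9), FOS (68.4 and 68.1), EGR1 (63.6 and 62.7), JUN (48.7 and 49.4), NR4A1 (11.5 and 11.8), FOSL2 (10.6 and 10.4), FOSB (1.41 and 1.51) and FOSL1 (0.179 and 0.171). There IER2 and FOS overlapped and could not be ordered. FOSB and FOSL2 had exchanged places.

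The composition of both AP-1 families differed between the groups. FOS family mRNA summed to 119.96 and 119.85 RPKM in the controls and to 80.6 and 80.2 RPKM in VIRMA-overexpressing cells. Within that sum the FOSB share was 9.62% ± 0.464 (SD, n = 2) in controls and 1.82% ± 0.0921 in VIRMA-overexpressing cells. FOSL2 took 7.11% ± 0.128 in controls and 13.05% ± 0.116 in VIRMA-overexpressing cells, and FOS itself 83.0% ± 0.381 and 84.9% ± 0.0305. Each of these 3 shares differed by more than the spread of its duplicates. The ratio of FOSB to FOSL2 was 1.35 in the controls and 0.139 in VIRMA-overexpressing cells.

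JUN family mRNA summed to 352 and 356 RPKM in the controls against 292 and 305 RPKM. JUN made up 24.8% ± 0.537 of it in controls and 16.4% ± 0.33 in VIRMA-overexpressing cells, well apart. JUNB had 41.5% ± 0.753 and 44.5% ± 2.10, and JUND 33.6% ± 0.216 and 39.1% ± 2.43, where the duplicates of VIRMA-overexpressing cells were less alike. Summed FOS family RPKM stood at 0.339 ± 0.00316 of summed JUN family RPKM in controls and at 0.269 ± 0.00914 in VIRMA-overexpressing cells. With 2 libraries a group, an exact permutation test of such a ratio cannot reach a p below 0.33, so these shares are given without one.

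**Figure D3:**
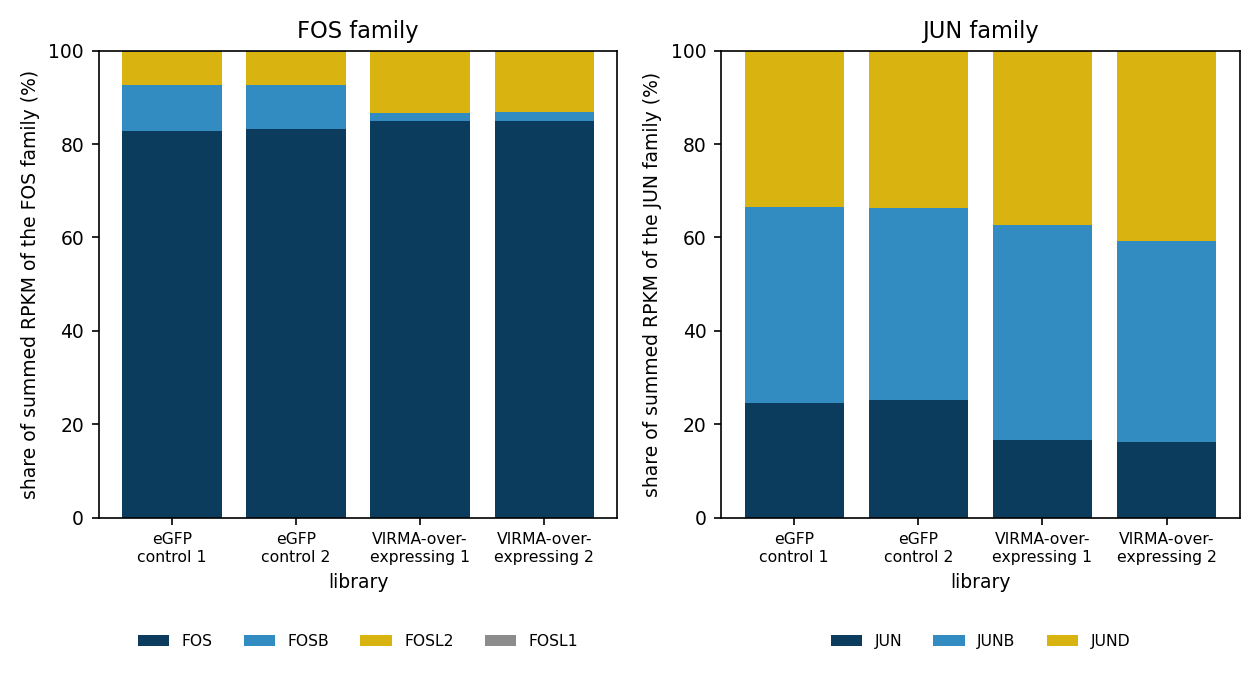
Share of each gene in the summed RPKM of the FOS family and of the JUN family, in percent, with 1 stacked bar per library. FOSB takes 9.62% of the FOS family in controls and 1.82% in VIRMA-overexpressing cells, and JUN takes 24.8% and 16.4% of the JUN family; FOSL1, at 0.260% and 0.218%, is too thin to see.

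Other basic leucine zipper proteins that can join AP-1 dimers included more that rose than fell. Among 14 such partners (ATF, JDP2, BATF and MAF proteins), 9 were tested, 6 rose (35.1% of all tested genes did) and 1 fell (35.9% did), with a median log2 fold change of 0.26. ATF3, a stress-induced partner of JUN that is also an immediate early gene, was the only one past both thresholds (4.52% of all tested genes were, upwards). Its counts were 2744 and 2882 in the controls and 7448 and 7290 in VIRMA-overexpressing cells, a log2 fold change of 1.37 (standard error 0.0435, adjusted p in edgeR = 5.44e-25). ATF2, a partner that MAP kinases phosphorylate, rose by 0.84 on the log2 scale (edgeR adjusted p = 2.31e-09). The small MAF proteins MAFF (0.49, edgeR adjusted p = 1.71e-10) and MAFG (0.30, 5.66e-07) and the repressor JDP2 (0.26, 1.97e-05) rose less. BATF, chosen after its value was seen as the only partner that fell, had a log2 fold change of -0.15 (edgeR adjusted p = 0.00366). With upper-quartile factors or library totals, 0 partners were called lower, so that call was lost.

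A list of 35 further immediate early genes was mixed. Of 28 tested, 15 fell and 9 rose, with a median log2 fold change of -0.19, beside 35.9% lower and 35.1% higher among all tested genes. Among all tested genes, 2.93% were lower and 4.52% higher past both thresholds. In this list 3 genes fell past both thresholds: KLF2, a zinc finger factor, by 2.53 on the log2 scale (edgeR adjusted p = 3.59e-26), ARC, a neuronal activity gene, by 1.66 (4.75e-10) and RHOB, a small GTPase, by 1.11 (1.64e-28). DUSP6, a cytoplasmic phosphatase of ERK, was the only one past both thresholds upwards (1.86, edgeR adjusted p = 1.99e-14), from 2.43 and 2.55 CPM to 8.47 and 9.58 CPM. DUSP6 passed the filter only through the VIRMA-overexpressing libraries (0.524 and 0.549 against 1.83 and 2.07 RPKM). ARC did so only through the controls (1.48 and 2.07 against 0.535 and 0.584 RPKM). NFKBIZ likewise passed only with VIRMA overexpressed (0.807 and 0.808 against 1.18 and 1.26 RPKM), and BTG2 only in the controls (1.32 and 1.14 against 0.788 and 0.686 RPKM). All of these had to differ to be tested, and NFKBIZ is among those that rose and BTG2 among those that fell. DUSP1, the nuclear relative of DUSP6, moved oppositely to it, with a log2 fold change of -0.92 (edgeR adjusted p = 3.46e-22). SOCS3, a cytokine signalling suppressor, fell by 0.89 on the log2 scale (edgeR adjusted p = 2.78e-10) and the zinc finger factor KLF6 by 0.81 (9.31e-15), while CCNL1, a cyclin linked to splicing, rose by 0.86 (2.32e-19).

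Factors that act at immediate early promoters (serum response factor, its partners, CREB and MEF2 proteins) numbered 12, all tested, of which 5 rose and 3 fell with a median of 0.11, beside 35.1% and 35.9% of all tested genes. CREB1 rose by 0.88 (edgeR adjusted p = 2.4e-13), MEF2D by 0.66 (4.7e-18), MKL2, a coactivator of serum response factor, by 0.55 (7.56e-09) and MEF2A by 0.44 (3.46e-05), all on the log2 scale. Without control replicate 2, CREB1 also passed the fold threshold, at 1.00. Of 17 genes for MAP kinases and the kinases they activate, 15 were tested, 9 fell and 3 rose, with a median of -0.14, where 35.9% and 35.1% of all tested genes did. Of the 15, 0 were past both thresholds, against 2.93% lower and 4.52% higher over all tested genes. The ERK-activated kinases RPS6KA1 (-0.73, edgeR adjusted p = 8.22e-18) and RPS6KA4 (-0.72, 2.11e-17) and the ERK gene MAPK3 (-0.54, 2.24e-14) fell, whereas the JNK gene MAPK8, whose product phosphorylates c-Jun, rose (0.54, 1.89e-08). Neither direction held for a whole class: another JNK gene, MAPK9, fell (-0.30, edgeR adjusted p = 2.46e-07) and another ERK-activated kinase, RPS6KA3, rose (0.28, 0.000759), both named after their values were seen.

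Of 19 textbook AP-1 target genes only 6 passed the filter, so the list was poorly sampled. Among them 4 fell and 2 rose, beside 35.9% and 35.1% of all tested genes. HMOX1, haem oxygenase, had a log2 fold change of -0.999 (edgeR adjusted p = 6.55e-14), just inside the fold threshold, which it passed without control replicate 1 (-1.06) or without VIRMA-overexpressing replicate 2 (-1.07). The urokinase receptor gene PLAUR fell (-0.85, edgeR adjusted p = 1.81e-10), while TIMP1, an inhibitor of metalloproteinases, rose (0.46, 9.73e-06).

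Proteins that bind AU-rich elements or shorten poly-A tails, which set the lifetime of many immediate early mRNAs, formed a list of 14, all tested, with 7 lower, 3 higher and a median of -0.12, where 35.9% of all tested genes were lower and 35.1% higher. The decay factors ZFP36 (-0.67, edgeR adjusted p = 8.7e-13) and KHSRP (-0.56, 5.56e-18) and the stabilising protein ELAVL1 (-0.52, 1.05e-14) fell. The deadenylase subunits PAN2 (1.06, edgeR adjusted p = 4.2e-21) and PAN3 (0.85, 1.52e-16) rose. PAN2 was past both thresholds, beside 4.52% of all tested genes upwards, but not when control replicate 2 was left out (0.97).

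**Figure D4:**
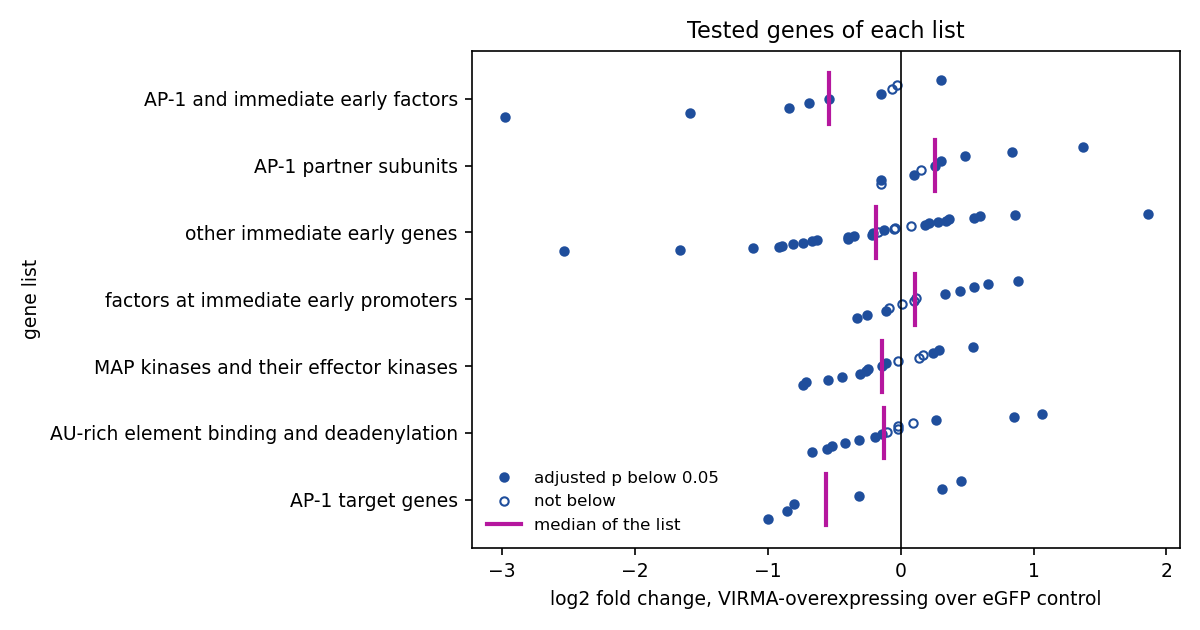
Log2 fold change of every tested gene of the set and of the 6 related lists, VIRMA-overexpressing over control, with 1 point per gene and a bar at the list median. Filled points have an adjusted p below 0.05, open points do not, and the vertical line marks 0. The medians run from -0.56 for the 6 tested AP-1 targets and -0.54 for the set itself to 0.26 for the partner subunits.

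Exons of 3 genes of the set overlap genes on the opposite strand. Libraries were made with a stranded kit, but whether counting used strand is not stated, so reads of such pairs may not be separable. Of the 7295 exonic bases of NR4A1, 10.3% are shared with the antisense gene RP11-1100L3.8 (chromosome 12, 52058459 to 52059503, minus strand), and those 754 bases are 82.4% of that gene. RP11-1100L3.8 gave 3392 and 2977 counts in control libraries against 579 and 470, a log2 fold change of -2.62 (standard error 0.0825, adjusted p in edgeR = 4e-25). JUNB shares 259 bases, 14.2% of its length, with HOOK2, which moved the opposite way to JUNB (log2 fold change 0.90, edgeR adjusted p = 3.14e-19). All 946 bases of the antisense gene CTC-250I14.6 lie within IER2 exons, and it had 0 counts in every library. Since the use of strand in counting is not stated, this 0 does not bound its level.

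**Figure D5:**
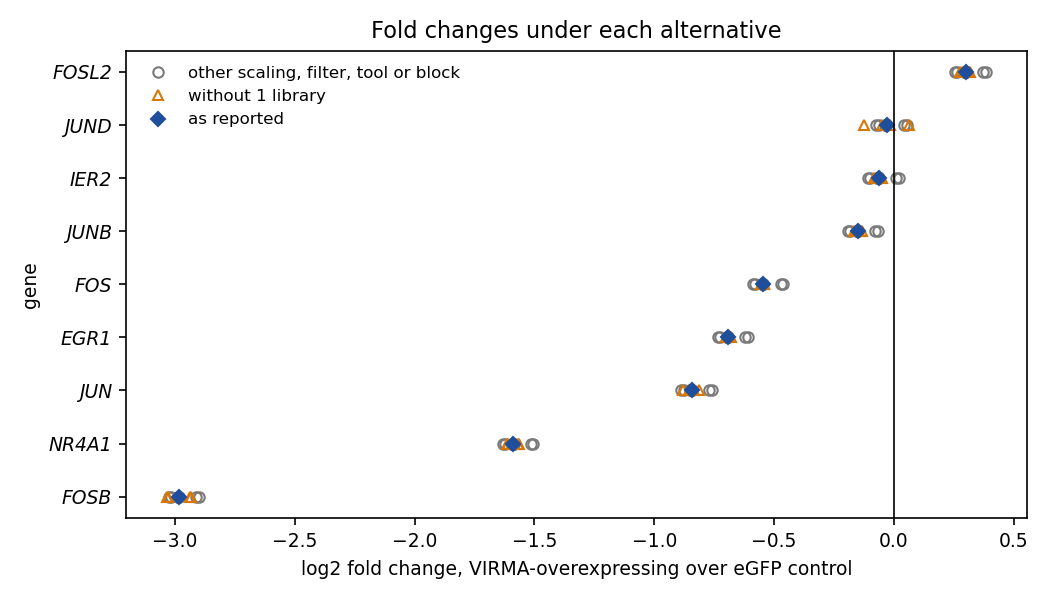
Log2 fold change of each tested gene of the set under every alternative scaling, filter, test, replicate block and left-out library, with 1 point per setting and the reported value marked. FOSB stays between -3.03 and -2.90 and NR4A1 between -1.63 and -1.504, while the points of JUND and IER2 fall on both sides of 0.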

How the data were processed

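The deposited values were raw counts per gene. The authors trimmed reads with Trimmomatic 0.39, aligned them to hg38 with STAR 2.5.2a and counted them with featureCounts; strand and multi-mapping settings are not stated. Columns of VIRMA-overexpressing libraries carry a number and were matched to the group left over, with VIRMA as the check. No column of sample values was left out. RPKM was computed from counts and deposited exonic lengths. Genes above 1 RPKM in at least 2 libraries, 12205 in all, entered a quasi-likelihood test in edgeR 4.0.16 (R 4.3.3) with TMM factors and no term but group, and p-values were adjusted over them by Benjamini and Hochberg's method. Thresholds were an adjusted p of 0.05 and, where both are named, an absolute log2 fold change of 1. Standard errors are the estimate over the square root of F. CPM and RPKM use TMM-adjusted library sizes, and percentiles of RPKM are over tested genes. On simulated counts for 12205 genes in this comparison, 98% of 2-fold changes were recovered. Alternatives used DESeq2 1.42.0 (also its size factors), limma-voom (limma 3.58.1), other scalings, filters and fold tests, a replicate block and left-out libraries.

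The genes and lists were chosen with earlier results of these data known. Named from each list were genes past both thresholds and otherwise the 4 largest changes at most, with overlapping genes; a gene that this rule names among the AP-1 targets is not reported here. As a measure of likeness, the 3 genes in no list with the smallest root mean square difference from FOSB in centred log2 CPM were taken. In 2 identifiers that occur more than once, symbols had been turned into dates; none belongs to the set.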

Additional observations from a re-analysis of the deposited data

How the results depend on the processing

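FOSB (-3.03 to -2.90), NR4A1 (-1.63 to -1.504), JUN (-0.89 to -0.76), EGR1 (-0.73 to -0.61), FOS (-0.59 to -0.46) and FOSL2 (0.26 to 0.38) kept their direction under every alternative run. The log2 fold change of JUND turned to 0.0423 with upper-quartile factors, 0.0543 with library totals and 0.0620 without VIRMA-overexpressing replicate 1 (-0.126 without replicate 2), and that of IER2 to 0.0084 and 0.0203 with the former 2 scalings. Those scalings moved the median of all tested genes from 0.01 to 0.08 and 0.10. The cause was not tested. Same-numbered deviations from the group means had r = 0.0755. With 2 libraries a group this is a single correlation, so it cannot show whether replicate numbers paired the samples. With the replicate block, 541 genes rose and 356 fell past both thresholds (552 and 358 without it), and 7 of the set were lower at the adjusted p, IER2 being added. Over all genes, 1137 and 820 passed with no filter, 1044 and 808 with filterByExpr, and 189 and 173 when tested against 2-fold.

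Against 2-fold, 2 of the set were lower and 0 higher, with 1 higher and 0 lower partner, 3 lower and 1 higher other immediate early gene, and 0 in either direction among promoter factors, MAP kinases, AP-1 targets and AU-rich element proteins. Against 1.5-fold, 4 of the set were lower and 0 higher, with 2 higher and 0 lower partners, 6 lower and 2 higher immediate early genes, 0 lower and 2 higher promoter factors, 2 lower and 0 higher MAP kinases, 0 higher AP-1 targets and 0 lower AU-rich element proteins. In the other direction of the last 2 lists, HMOX1 and PLAUR stayed lower among AP-1 targets, and PAN2 and PAN3 higher among AU-rich element proteins. These tests ask for a larger change by construction. Of all 12205 tested genes, 807 were lower and 838 higher against 1.5-fold, and 173 were lower and 189 higher against 2-fold. With upper-quartile factors or library totals, 0 partners were lower and 5 MAP kinases higher. Of all 12205 tested genes, 3693 were lower and 4992 higher with upper-quartile factors, and 3590 and 5092 with library totals. With no filter, 5204 of 33976 genes were lower at the adjusted p, and with filterByExpr 5358 of 20568. In both settings, 2 partners were lower (1 past both thresholds) and 7 AP-1 targets were lower (2 past both). More genes being tested, 6 immediate early genes and 1 MAP kinase were lower past both. With a mean CPM filter, 5 immediate early genes and 1 AP-1 target were lower past both, as were 432 of all 13692 genes. With DESeq2 or its size factors 1 AP-1 target was lower past both, as were 350 and 361 of 12205 genes. At the adjusted p alone, DESeq2 called 1 AP-1 target higher. Leaving out 1 library gave 1 to 2 higher AP-1 targets and 0 to 1 lower past both, 0 to 1 promoter factors higher past both and 0 to 1 AU-rich element proteins higher past both. Computed from CPM in place of RPKM, the FOSB share was 14.3% in controls and 2.66% in VIRMA-overexpressing cells, the JUN share 38.9% and 27.45%, and the FOS to JUN family ratio 0.559 and 0.482. Depth limits FOSL1, with at most 55 counts.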

Other observations

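Outside all lists, the 3 tested genes whose centred log2 CPM over the 4 libraries lay nearest to FOSB were RP11-1100L3.8, GSTP1 and GLYATL2. RP11-1100L3.8, the antisense gene within NR4A1, differed from FOSB by a root mean square of 0.225. For GSTP1, a glutathione transferase, the difference was 0.335, and its level was 109 and 111 CPM in the controls against 22.7 and 22.9 CPM (log2 fold change -2.27, edgeR adjusted p = 1.34e-31). GLYATL2, a glycine acyltransferase, had a root mean square difference of 0.375 and a log2 fold change of -2.35. With 4 libraries in 2 groups, this likeness mostly reflects a similar fold change between the groups.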
